A study of Homo sapiens with 6 samples.

Results

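The genes described here encode Polycomb repressive complex 2 (PRC2), in 6 RNA-seq libraries of K562 cells. The 10 members were taken by gene name as EZH1, EZH2, SUZ12, EED, RBBP4, RBBP7, PHF19, MTF2, JARID2 and AEBP2, out of 60131 genes in the deposited RPKM table. The same 10 were found by Entrez identifier among the 28395 genes of the deposited normalized count table. K562 is a human line derived from chronic myeloid leukaemia whose cells carry erythroid and megakaryocytic traits. There were 3 libraries of K562 cells carrying RUNX1 R320*, a nonsense change in the transcription factor RUNX1, and 3 of K562 cells whose RUNX1 is wild-type (WT). All were grown in RPMI-1640 with fetal bovine serum and no further agent is named. How the R320* change was introduced, whether the cells are a single clone and whether the replicates are separate cultures is not stated in the labels, so the p-values rest on a spread between libraries that may be technical only.

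PRC2 places methyl groups on a lysine of histone H3 (H3K27), a mark of silenced genes, and in blood cells it helps to keep the programmes of other lineages and stages switched off. Its core is a catalytic subunit, EZH2 or its paralog EZH1, with SUZ12, EED and a histone-binding WD-repeat protein, RBBP4 or RBBP7. Accessory proteins define alternative forms of the complex. PHF19 and MTF2 are Polycomb-like proteins of the form PRC2.1, and JARID2 and AEBP2 belong to the form PRC2.2.

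Reads assigned to genes came to between 30064538 and 31306435 per R320* library and between 29058471 and 30595857 per WT library. RUNX1 itself averaged 5165 ± 124 normalized read counts in R320* and 2933 ± 31.6 in WT (SD, n = 3 each). It was higher in R320* (log2 fold change 0.82, limma adjusted p = 4.4e-11), and the cause was not tested. Gene-level values do not show the codon change, so they do not check the labels. Of 12 erythroid and megakaryocytic markers of K562, all passed the filter on low values, and 8 were called higher and 3 lower in R320* by the count fit described below, against 26.4% and 27.4% of all genes. In the RPKM fit 6 were called higher and 3 lower, against 15.1% and 16.8% of all genes. NFE2, a transcription factor of these lineages, averaged 5972 ± 268 normalized counts in R320* and 11903 ± 137 in WT (limma adjusted p = 2.17e-12). GATA1, another such factor, was lower (log2 fold change -0.55, limma adjusted p = 2.83e-09). The factors TAL1, LMO2 and KLF1 went the other way and were called higher (log2 fold changes 0.58, 0.32 and 0.22). In RPKM KLF1 was not called (log2 fold change 0.05, limma adjusted p = 0.624). TFRC, the transferrin receptor, was also higher (0.60, limma adjusted p = 2.34e-10). The summed level of the 12 markers was 163835 to 188909 normalized counts in R320* and 145261 to 150214 in WT. Of 5 markers each for T cells, B cells, fibroblasts and epithelium, 3, 1, 2 and 2 passed the filter on low values. The summed epithelial markers lay between 11052 and 11295 normalized counts in R320* and between 4221 and 4284 in WT, almost all from EPCAM and KRT19, while CDH1, KRT5 and KRT14 did not pass the filter. The fibroblast sum was lower in R320*, at 2693 to 2920 against 3424 to 3516 in WT. Most of it came from COL1A2 (2725 ± 108 in R320*, 3388 ± 41.7 in WT), while COL1A1 was called higher (log2 fold change 0.61, limma adjusted p = 0.0313). In RPKM COL1A1 was not called (limma adjusted p = 0.0788). The T cell sum was also lower, at 639 to 736 in R320* against 925 to 999 in WT. There CD3D was called lower (log2 fold change -0.64, limma adjusted p = 1.13e-05), and CD3G (0.768) and CD5 (0.783) were not called. The B cell sum overlapped, at 101 to 132 in R320* and 87.9 to 111 in WT. CD2 of the T cell list and PAX5 of the B cell list were at 0 in every library. The part of these markers in the results below was not tested. In a bulk sample, fewer cells expressing a gene and less RNA per cell cannot be told apart.

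EZH2, the catalytic subunit of cycling cells, was the PRC2 gene with the largest difference, and it was lower in R320* cells. Levels are normalized counts, the reads of a gene scaled by the authors with a single factor for each library. A log2 fold change subtracts WT from R320* after adding 1 to each normalized count, as fitted with limma. P-values were adjusted over all 14299 genes tested (Benjamini-Hochberg), and a gene was called where the adjusted p was below 0.05. EZH2 (Entrez gene 2146, chromosome 7, 148807383 to 148884291, GRCh38) had 4030, 3874 and 3851 normalized counts in the R320* libraries, against 5777, 5880 and 5598 in the WT libraries. Every R320* library lay below every WT library, with a gap wider than the spread within either genotype. The means were 3918 ± 97.3 in R320* and 5752 ± 143 in WT (SD, n = 3 each), a ratio of 0.681. The log2 fold change was -0.55 (SE 0.04, 95% interval -0.64 to -0.47, limma adjusted p = 4.95e-09). EZH2 was called in all 15 alternative settings of the count fit. In the RPKM table, whose values are per gene length, it stood at 47.5, 45.9 and 46.9 RPKM in R320* and at 72.0, 68.2 and 69.3 RPKM in WT. That gave a log2 fold change of -0.58 on the log2(RPKM + 0.1) scale (SE 0.04, limma adjusted p = 0.000126 over 17769 genes).

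EZH1, the paralog that is known for its presence in resting and differentiated cells, did not pass the test. EZH1 (chromosome 17, 42700275 to 42745040) had 2569, 2452 and 2542 normalized counts in R320* and 2309, 2438 and 2350 in WT. The libraries did not overlap, but the gap between the closest pair was small. The log2 fold change was 0.09 (95% interval -0.01 to 0.19, limma adjusted p = 0.104). In RPKM the libraries overlapped, with a mean of 36.4 ± 1.00 in R320* and 35.6 ± 1.37 in WT (log2 fold change 0.03, limma adjusted p = 0.653). The interval in counts leaves room for a rise of up to 0.19 and for no rise.

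Per length, EZH2 took a smaller share of the paralog pair in every R320* library than in any WT library. EZH2 made up 56.8%, 56.4% and 55.5% of the summed EZH1 and EZH2 RPKM in R320*, against 67.7%, 65.8% and 65.2% in WT. The means were 56.2% ± 0.633 in R320* and 66.2% ± 1.33 in WT, a difference of -10.01 percentage points. All R320* libraries were lower than all WT libraries, and the exact two-sided permutation test gave p = 0.1, the smallest value that 3 libraries against 3 allow. The summed RPKM of EZH1 and EZH2 was 83.2 ± 1.5 in R320* and 105 ± 1.6 in WT (SD, n = 3 each, exact permutation p = 0.1). EZH2 remained the more abundant of the 2 paralogs per length in every library.

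**Figure D1:**
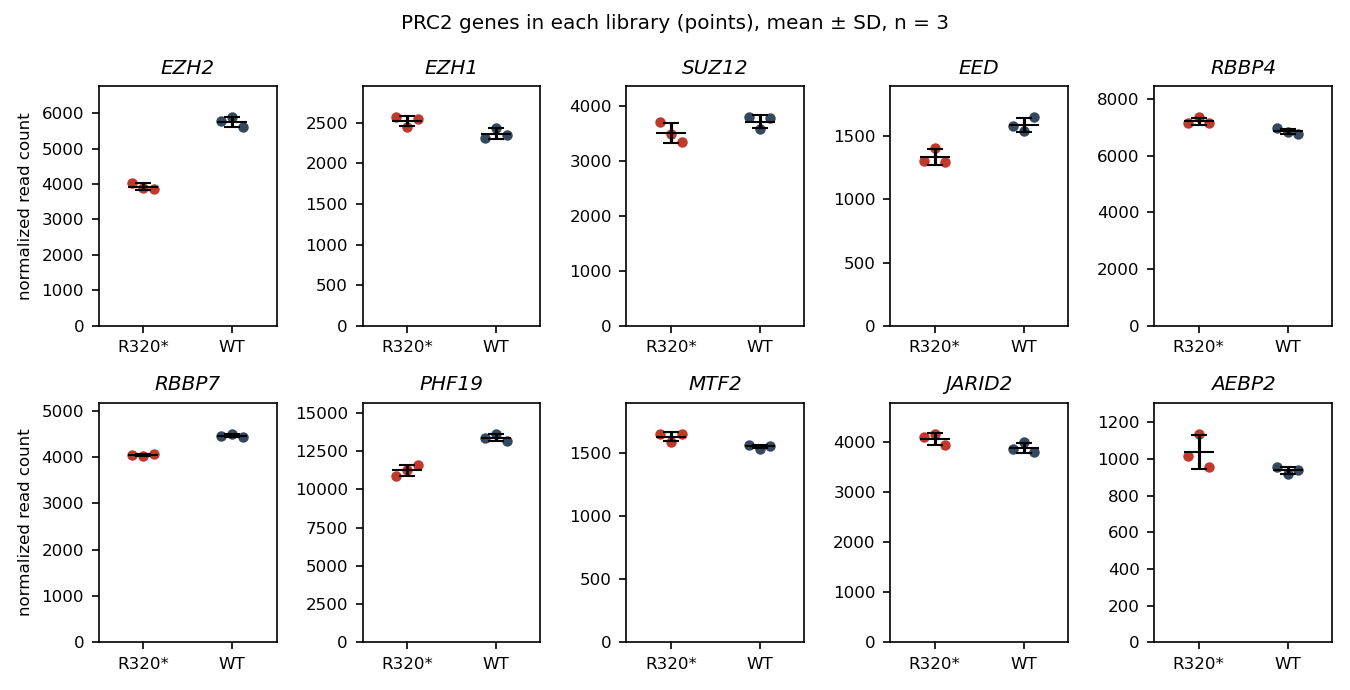
Normalized read counts of the 10 PRC2 genes in each library, R320* (left, red) and WT (right, grey), with the mean and SD (n = 3 each) in black and each vertical axis starting at 0. EZH2, EED, RBBP7 and PHF19 were lower in all R320* libraries than in all WT libraries, with EZH2 at 3851 to 4030 in R320* and 5598 to 5880 in WT. EZH1, RBBP4 and MTF2 were higher in all R320* libraries than in all WT libraries but were not called. Over all genes tested the genotypes did not overlap for 59.8%.

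The promoters of the catalytic paralogs are shown because EZH2 was called lower and EZH1 was not called. They are the 250 bases before the RefSeq gene start (GRCh38.p14), written on the strand of the gene, with capitals for CCAAT or its reverse ATTGG, for TTTCCCGC, TTTCGCGC, TTTGCCGC or TTTGGCGC (known binding letters of E2F factors) and for TGTGGT or TGCGGT (known binding letters of RUNX factors), each searched on both strands.
EZH2 promoter, chr7:148884292-148884541, minus strand: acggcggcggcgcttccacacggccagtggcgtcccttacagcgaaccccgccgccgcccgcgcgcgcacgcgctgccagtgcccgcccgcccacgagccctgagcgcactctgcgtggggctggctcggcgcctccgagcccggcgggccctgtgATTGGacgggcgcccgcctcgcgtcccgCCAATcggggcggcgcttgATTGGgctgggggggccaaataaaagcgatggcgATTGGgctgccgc
EZH1 promoter, chr17:42745041-42745290, minus strand: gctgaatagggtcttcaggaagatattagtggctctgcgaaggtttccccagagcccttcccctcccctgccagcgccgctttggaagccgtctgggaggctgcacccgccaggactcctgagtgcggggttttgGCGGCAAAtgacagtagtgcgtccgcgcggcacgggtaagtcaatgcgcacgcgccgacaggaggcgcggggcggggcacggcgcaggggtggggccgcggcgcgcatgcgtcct
The EZH2 window held 4 CCAAT matches, 94, 66, 47 and 13 bases before the start, and no RUNX or E2F match. Of 35116 RefSeq promoter windows of this length, 307 (0.874%) held at least 4 CCAAT matches and 32.0% held at least 1. The EZH1 window held 1 E2F match, 115 bases before the start, and no CCAAT match. E2F letters were present in 2.79% of all windows. Neither match is evidence of binding in these cells.

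EED, the subunit that reads the methyl mark and is needed for catalytic activity, was also lower in R320* cells. EED (chromosome 11, 86244753 to 86287615) had 1302, 1407 and 1298 normalized counts in R320*, against 1577, 1542 and 1649 in WT. The genotypes did not overlap. EED differed by a log2 fold change of -0.25 (SE 0.06, limma adjusted p = 0.00134), a ratio of 0.840. EED stood at 31.4 ± 0.753 RPKM in R320* and 37.1 ± 0.661 RPKM in WT (SD, n = 3 each), with a log2 fold change of -0.24 (limma adjusted p = 0.00645). It was called in all 15 alternatives of the count fit and all 10 of the RPKM fit.

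SUZ12, the scaffold of the complex, did not pass the test in either table. SUZ12 (chromosome 17, 31937007 to 32001038) had 3715, 3500 and 3350 normalized counts in R320*, against 3802, 3586 and 3785 in WT, and the genotypes overlapped. The log2 fold change was -0.08 (95% interval -0.18 to 0.02, limma adjusted p = 0.153). Without R320* replicate 1 the call changed (log2 fold change -0.12, limma adjusted p = 0.044, and 0.044 to 0.432 over the alternatives). SUZ12 has a transcribed pseudogene, SUZ12P1, on the same chromosome, and how reads divide between the copies is uncertain. SUZ12P1 averaged 590 ± 38.0 normalized counts in R320* and 545 ± 19.1 in WT (limma adjusted p = 0.274). In RPKM it averaged 32.3 in R320* and 29.4 in WT, next to 33.1 in R320* and 33.8 in WT for SUZ12.

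The histone-binding paralogs RBBP4 and RBBP7, which also serve in other chromatin complexes, had differences of opposite sign, and the tables differed on which of them was called. RBBP7 (chromosome X, 16844341 to 16870362) had 4033, 4027 and 4065 normalized counts in R320*, against 4449, 4499 and 4439 in WT, with no overlap. RBBP7 differed by a log2 fold change of -0.14 (SE 0.04, limma adjusted p = 0.00419). In RPKM it stood at 81.7 ± 0.865 in R320* and 83.9 ± 0.723 in WT (log2 fold change -0.04, limma adjusted p = 0.417). The end of RBBP7 overlaps that of TXLNG, a gene on the opposite strand that averaged 1334 ± 78.7 normalized counts in R320* and 1177 ± 90.8 in WT (limma adjusted p = 0.0334). Whether strand was used in counting is not stated in the labels.

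RBBP4 was the most abundant core member per length. RBBP4 (chromosome 1, 32651208 to 32686211) had 228, 244 and 239 RPKM in R320*, against 210, 203 and 192 RPKM in WT, with no overlap (log2 fold change 0.23, SE 0.05, limma adjusted p = 0.00837). In normalized counts it had 7148, 7358 and 7158 in R320* and 6968, 6821 and 6783 in WT. Its log2 fold change in counts was 0.07 (95% interval 0.00 to 0.15, limma adjusted p = 0.0854), smaller than in RPKM, and it was not called there. RBBP7 made up 25.6% ± 0.856 of the summed RBBP4 and RBBP7 RPKM in R320* and 29.4% ± 0.731 in WT (SD, n = 3 each, exact permutation p = 0.1, the smallest possible). The share was lower in every R320* library than in every WT library.

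The promoters of EED and RBBP7 are shown as those of the other core genes called lower in normalized counts, with capitals as above.
EED promoter, chr11:86244503-86244752, plus strand: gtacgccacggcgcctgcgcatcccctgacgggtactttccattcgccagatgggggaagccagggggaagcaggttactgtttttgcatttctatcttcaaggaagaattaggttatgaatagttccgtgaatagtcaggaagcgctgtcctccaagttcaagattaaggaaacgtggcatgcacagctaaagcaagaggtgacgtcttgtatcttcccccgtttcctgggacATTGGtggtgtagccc
RBBP7 promoter, chrX:16870363-16870612, minus strand: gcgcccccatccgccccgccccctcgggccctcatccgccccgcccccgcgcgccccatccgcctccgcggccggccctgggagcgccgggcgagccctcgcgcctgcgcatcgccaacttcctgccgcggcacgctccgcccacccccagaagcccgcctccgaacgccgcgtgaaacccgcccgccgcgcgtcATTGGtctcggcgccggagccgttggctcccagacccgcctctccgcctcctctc
Each held 1 CCAAT match, 16 bases before the start in EED and 55 in RBBP7, and neither held RUNX or E2F letters. Of the 10 members' windows 7 had a CCAAT match, and 6 of the 8 that begin near the start used in the RPKM table, which leaves out PHF19 and AEBP2. Over all RefSeq windows the share was 32.0%. CCAAT matches were also present in SUZ12 and JARID2, called in neither table, and in RBBP4, called higher in RPKM. E2F letters were present in EZH1, SUZ12 and AEBP2, 3 of the 10 windows, against 2.79% of all windows. The EED window had a GC content of 51.2% and the RBBP7 window 79.6%, against a median of 58.0% over all windows.

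PHF19, a Polycomb-like subunit of PRC2.1 that binds a methyl mark of active genes, was called lower. It was the most abundant accessory member per length in both genotypes. PHF19 (chromosome 9, 120855651 to 120904128) had 10852, 11253 and 11594 normalized counts in R320*, against 13347, 13618 and 13138 in WT. Every R320* library was below every WT library. PHF19 differed by a log2 fold change of -0.25 (SE 0.04, limma adjusted p = 1.43e-05), a ratio of 0.840. In RPKM the means were 186 ± 3.81 in R320* and 226 ± 3.0 in WT (log2 fold change -0.28, limma adjusted p = 0.000961). PHF19 was called in all 15 alternatives of the count fit and all 10 of the RPKM fit.

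MTF2, the other Polycomb-like member, was higher in R320* in the RPKM table. MTF2 (chromosome 1, 93079283 to 93139076) had 22.5, 22.0 and 23.8 RPKM in R320*, against 18.2, 20.3 and 17.5 RPKM in WT, with no overlap (log2 fold change 0.29, SE 0.07, limma adjusted p = 0.0245). In normalized counts it had 1652, 1587 and 1648 in R320* and 1563, 1534 and 1558 in WT. There the log2 fold change was 0.07 (95% interval -0.04 to 0.18, limma adjusted p = 0.266). The RPKM call was lost without WT replicate 1 (limma adjusted p = 0.0738), without WT replicate 3 (0.0722), without R320* replicate 1 (0.0560) and without R320* replicate 3 (0.0780), and with the replicate number as a block (0.0643), in a range of 0.0161 to 0.0780 over its alternatives.

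JARID2 and AEBP2, the PRC2.2 members, did not pass the test in either table. JARID2, a catalytically inactive member of the Jumonji family that helps bring PRC2 to its targets, had 4115, 4170 and 3941 normalized counts in R320*, against 3858, 4002 and 3816 in WT. The genotypes overlapped (log2 fold change 0.07, 95% interval -0.02 to 0.15, limma adjusted p = 0.189). AEBP2, a zinc finger protein that binds DNA and stimulates the complex, had 1016, 1137 and 956 normalized counts in R320*, against 957, 919 and 938 in WT. R320* replicate 3 lay within the WT range and the other 2 R320* libraries above it (log2 fold change 0.14, 95% interval -0.01 to 0.29, limma adjusted p = 0.111). AEBP2 was called without R320* replicate 3 (log2 fold change 0.20, limma adjusted p = 0.0344) and with quantile scaling (0.18, limma adjusted p = 0.0406), with 0.0344 to 0.446 over its alternatives. AEBP2 had the lowest RPKM of the 10 members, at 12.9 ± 0.182 in R320* and 11.8 ± 1.18 in WT (SD, n = 3 each).

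The JARID2 promoter is shown as the only one of the 10 windows with letters of the RUNX motif.
JARID2 promoter, chr6:15245819-15246068, plus strand: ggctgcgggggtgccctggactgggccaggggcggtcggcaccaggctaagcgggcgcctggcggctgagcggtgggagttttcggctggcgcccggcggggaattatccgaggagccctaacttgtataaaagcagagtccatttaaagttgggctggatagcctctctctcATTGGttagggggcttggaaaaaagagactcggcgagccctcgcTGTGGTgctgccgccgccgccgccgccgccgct
The TGTGGT match began 33 bases before the start. RUNX letters were present in 16.3% of all RefSeq windows and in 1 of the 10 windows of these genes, and JARID2 was not called in either table. The RefSeq windows of PHF19 and AEBP2 began 25985 and 36554 bases from the start that the RPKM table uses for them, and their sequences are not shown.

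Among the 4 accessory genes the share of PRC2.2 members was higher in every R320* library than in any WT library. JARID2 and AEBP2 made up 13.3%, 13.1% and 12.8% of the summed accessory RPKM in R320*, against 10.5%, 11.5% and 10.6% in WT. The genotypes did not overlap (difference 2.22 percentage points, exact permutation p = 0.1, the smallest possible). On normalized counts, which are not per length, the difference was 3.99 percentage points. The sum of PHF19 and MTF2 was 209 ± 3.02 RPKM in R320* and 244 ± 1.58 RPKM in WT (exact permutation p = 0.1). The sum of JARID2 and AEBP2 overlapped between genotypes, at 31.5 ± 0.859 RPKM in R320* and 29.8 ± 1.49 RPKM in WT (exact permutation p = 0.2). The 3 shares described here were fixed together, and none can pass adjustment over them with 3 libraries a genotype.

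**Figure D2:**
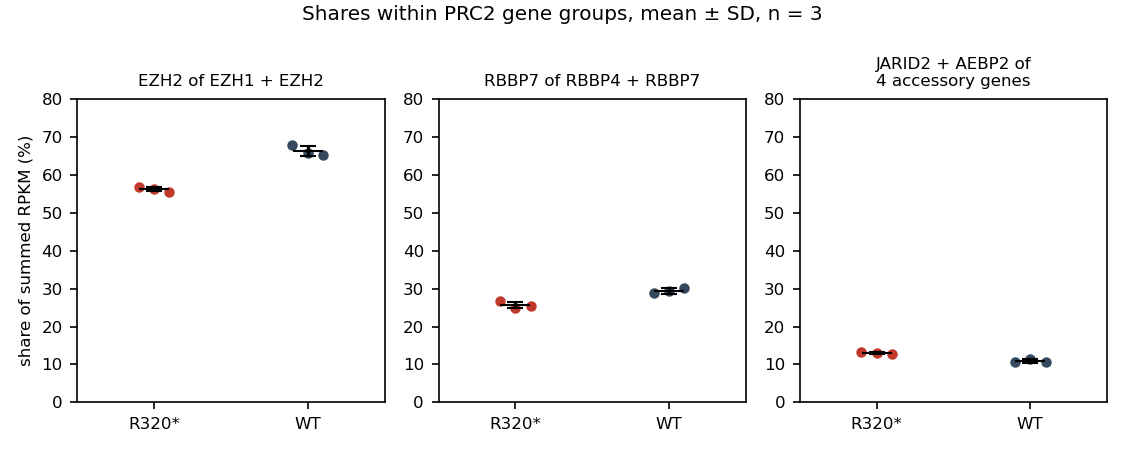
Share of summed RPKM (vertical axis, percent) taken by EZH2 within EZH1 and EZH2, by RBBP7 within RBBP4 and RBBP7, and by JARID2 and AEBP2 within the 4 accessory genes, in R320* (left, red) and WT (right, grey) libraries with mean and SD (n = 3 each). The EZH2 share averaged 56.2% in R320* and 66.2% in WT, and none of the 3 shares overlapped between genotypes.

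Set against all genes, the median size of the differences among the PRC2 genes was small. In normalized counts 4 of the 10 members were called, 4 lower (EZH2, EED, RBBP7 and PHF19) and 0 higher (limma), or 1 higher (RBBP4) at an unadjusted p under 0.05. Over all 14299 genes tested 53.7% were called, 27.4% lower and 26.4% higher, a background that 4 of 10 members does not exceed. With upper-quartile scaling EZH1 (limma adjusted p = 0.0324) and RBBP4 (0.0192) were called higher, and with quantile scaling AEBP2 was. In RPKM 5 of 10 were called, 3 lower (EZH2, EED and PHF19) and 2 higher (RBBP4 and MTF2), against 31.9% of 17769 genes, 16.8% lower and 15.1% higher. The tables come from the same libraries and are not independent of each other. All 10 members had the same sign in both. The members' median absolute log2 fold change was 0.12 in counts, against 0.27 over all genes tested, and 0.18 in RPKM, against 0.28. Genes of all levels are included there, and the comparison was not matched for level. The members' median signed change in counts was -0.01, against 0.01 over all genes. EZH2 had a larger absolute change than 74.2% of the genes tested, EED than 47.3% and PHF19 also than 47.3%, and none of the called members differed by 1.5-fold or more. The 3 R320* and 3 WT libraries did not overlap for 7 of 10 members, against 59.8% of all genes.

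**Figure D3:**
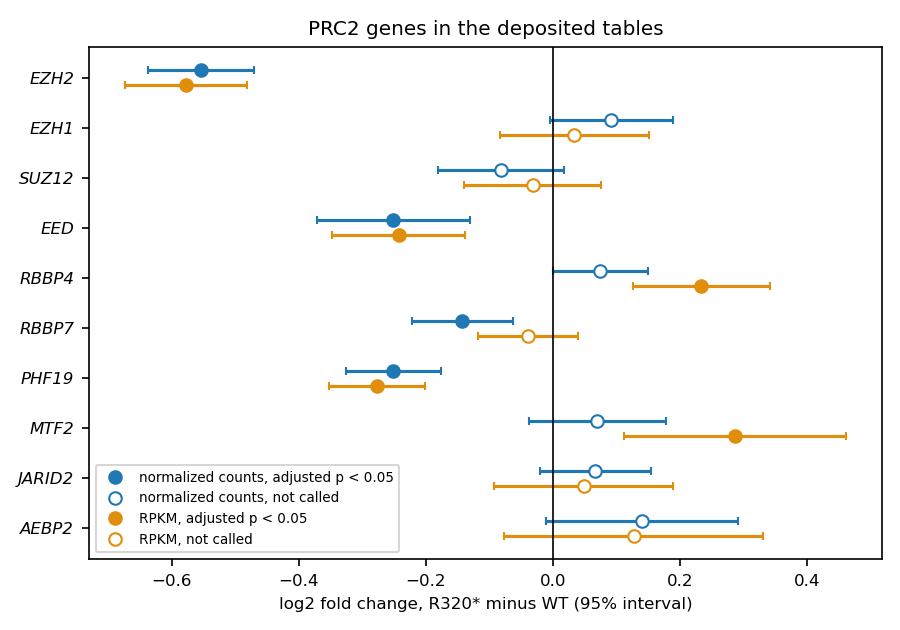
Log2 fold change of each PRC2 gene, R320* minus WT, with its 95% interval, from normalized counts (blue) and RPKM (orange), filled where the limma adjusted p was below 0.05. EZH2, EED and PHF19 were called lower in both tables, and RBBP4, RBBP7 and MTF2 were called in 1 table each.

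The 4 members called in counts lay on different chromosomes, whereas RBBP4 and MTF2, called in RPKM, both lie on chromosome 1. Among the 10 tested genes nearest to EZH2, 3 were called higher and 1 lower (median log2 fold change 0.12). The 10 genes nearest to EED had a median of -0.16 with 2 higher and 3 lower, and those nearest to PHF19 a median of -0.28 with 1 higher and 4 lower. Around RBBP7, 5 of 10 neighbours were called higher and 1 lower, with a median of 0.08. Over all genes tested in counts 26.4% were called higher and 27.4% lower, and the neighbour counts were not tested against these shares. Over the 20 nearest genes the medians were 0.07 for EZH2, 0.07 for EED, -0.08 for PHF19 and -0.03 for RBBP7, so that the sign turned for EED and RBBP7.

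The other genes of the Polycomb system split in both directions. They were taken as 85 genes in 8 lists of complexes and factors that work with or against PRC2. Of the 81 tested, 28 were called higher and 19 lower (58.0%, against 53.7% of all genes). Of these 47 called genes, 46 had the same sign in RPKM and 27 were called there. The further PRC2 accessory genes PHF1, EPOP, LCOR and LCORL were tested and 0 were called (limma, and also 0 at an unadjusted p under 0.05), in counts and in RPKM alike. LCOR, which encodes PRC2 partner proteins from an alternative transcript, averaged 755 ± 32.8 normalized counts in R320* and 674 ± 41.6 in WT (limma adjusted p = 0.0859). PHF1, another Polycomb-like gene, had 41.8 ± 5.97 normalized counts in R320* and 36.4 ± 13.5 in WT, but 36.9 ± 1.3 RPKM in R320* and 35.1 ± 2.29 RPKM in WT. The tables thus disagree on the level of PHF1. PHF1 and the PRC1 gene RING1 lie on chromosome 6 in or beside the MHC, for which hg38 holds alternate sequences, and how reads there were counted is not given in the sources used here. Its part in their low counts was not tested, so these counts may not stand for their levels, nor the count fit for a test of PHF1. EZHIP, an inhibitor of PRC2 known from germ cells, did not reach the filter, with at most 3.97 normalized counts in a library.

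PRC1, which ubiquitinates histone H2A at many of the same genes, had 7 of 23 tested members called higher and 5 lower in counts (median log2 fold change 0.06). Over all genes 26.4% were called higher and 27.4% lower there. In RPKM 4 of 24 were called higher and 4 lower, against 15.1% and 16.8% of all genes, so that the PRC1 counts lay near those shares. SCML2, a Polycomb protein with methyl-lysine-binding repeats, rose 1.77-fold, with 1136 ± 91.7 normalized counts in R320* and 642 ± 21.0 in WT (limma adjusted p = 8.48e-08). BCOR, a subunit of a variant PRC1, fell to 5307 ± 87.9 in R320*, against 7300 ± 143 in WT (log2 fold change -0.46, limma adjusted p = 1.77e-08). RING1 and SCML1 were listed at 0 normalized counts in every library, whereas RING1 had 24.7 ± 0.186 RPKM in R320* and 24.1 ± 1.56 RPKM in WT. Counts and RPKM also disagreed for PCGF2, with 143, 15.9 and 13.3 normalized counts in R320* and 10.5, 5.98 and 275 in WT. Its RPKM averaged 12.7 ± 0.770 in R320* and 14.6 ± 1.80 in WT. BMI1 was called higher in counts (log2 fold change 0.41, limma adjusted p = 0.0196) but not in RPKM (0.01, limma adjusted p = 0.969). The cause was not tested, and the counts of these genes may not stand for their levels.

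The PR-DUB genes, whose complex removes the PRC1 mark, were called higher for 5 of 10 and lower for 2 in counts, against 26.4% and 27.4% of all genes. In RPKM 3 of 10 were called higher and 2 lower, against 15.1% and 16.8% of all genes. FOXK1, a forkhead factor that binds BAP1, rose 1.51-fold, with 6279 ± 172 normalized counts in R320* and 4161 ± 202 in WT (limma adjusted p = 5.81e-09). MBD6, a PR-DUB partner, fell to 1208 ± 68.9 in R320*, against 1833 ± 112 in WT (limma adjusted p = 4.56e-07). Of 4 genes for enzymes that demethylate or acetylate H3K27, 2 were called lower and 0 higher in counts, and 1 lower and 0 higher in RPKM (limma, and also 0 higher at an unadjusted p under 0.05 in both). Over all genes 27.4% were called lower and 26.4% higher in counts, and 16.8% and 15.1% in RPKM. KDM6B, an H3K27 demethylase, fell to 1126 ± 68.3 in R320*, against 1661 ± 74.2 in WT (log2 fold change -0.56, limma adjusted p = 9.09e-07). KDM6A, the demethylase UTX, was called lower in counts (log2 fold change -0.21, limma adjusted p = 0.0139), but in RPKM its sign was opposite and it was not called (log2 fold change 0.21, limma adjusted p = 0.15).

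H3K36 methyltransferases, whose mark hinders PRC2, were called lower for 3 of 5 genes in counts, against 27.4% of all genes, and higher for 0 (limma, or 1 higher, ASH1L, at an unadjusted p under 0.05). In RPKM SETD2 was the 1 of 5 called lower, against 16.8% of all genes. SETD2 fell to 2581 ± 31.7 normalized counts in R320*, against 3456 ± 65.8 in WT (limma adjusted p = 3.01e-07). NSD1 fell to 3664 ± 22.0 in R320*, against 4739 ± 211 in WT (limma adjusted p = 1.44e-06), and NSD3 was also called lower in counts (limma adjusted p = 0.00172). Neither was called in RPKM (limma adjusted p = 0.0925 for NSD1 and 0.0585 for NSD3). Trithorax genes, which oppose Polycomb silencing, were called higher for 4 of 9 and lower for 2 in counts, against 26.4% and 27.4% of all genes. In RPKM 1 of 9 was called higher and 2 lower, against 15.1% and 16.8% of all genes. The subunit gene WDR5 rose to 4300 ± 74.0 in R320*, against 3330 ± 26.1 in WT, and the methyltransferase gene KMT2D fell to 6192 ± 23.7 in R320*, against 8274 ± 589 in WT. Their limma adjusted p-values were 6.6e-07 and 8.81e-07.

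RBBP4 and RBBP7 also serve in the NuRD remodelling complex and the CAF-1 histone chaperone, whose other genes had 7 of 13 called higher and 2 lower in counts (median log2 fold change 0.15), against 26.4% and 27.4% of all genes. In RPKM 3 of 13 were called higher (HDAC2, MTA2 and CHAF1A) and 2 lower (HDAC1 and CHD4), with a median of 0.02, against 15.1% and 16.8% of all genes. MTA2 rose to 6868 ± 329 normalized counts in R320*, against 5721 ± 216 in WT (limma adjusted p = 7.16e-05). MBD3 rose to 4734 ± 248.7 in R320*, against 3877 ± 94.3 in WT (limma adjusted p = 4.2e-05), and was not called in RPKM (limma adjusted p = 0.0706). E2F and RB factors, the cell-cycle regulators known to act on EZH2 and EED, were called higher for 5 of 13 and lower for 3 in counts, against 26.4% and 27.4% of all genes. In RPKM 2 of 13 were called higher (E2F1 and E2F5) and 2 lower (E2F7 and RB1), against 15.1% and 16.8% of all genes. E2F7, a repressor of the family, was the one companion gene past a 2-fold difference. It fell to 500 ± 9.91 normalized counts in R320*, against 1275 ± 79.9 in WT (log2 fold change -1.35, SE 0.07, limma adjusted p = 1.37e-10), and stood at 3.50 ± 0.312 RPKM in R320* and 8.52 ± 0.281 RPKM in WT.

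**Figure D4:**
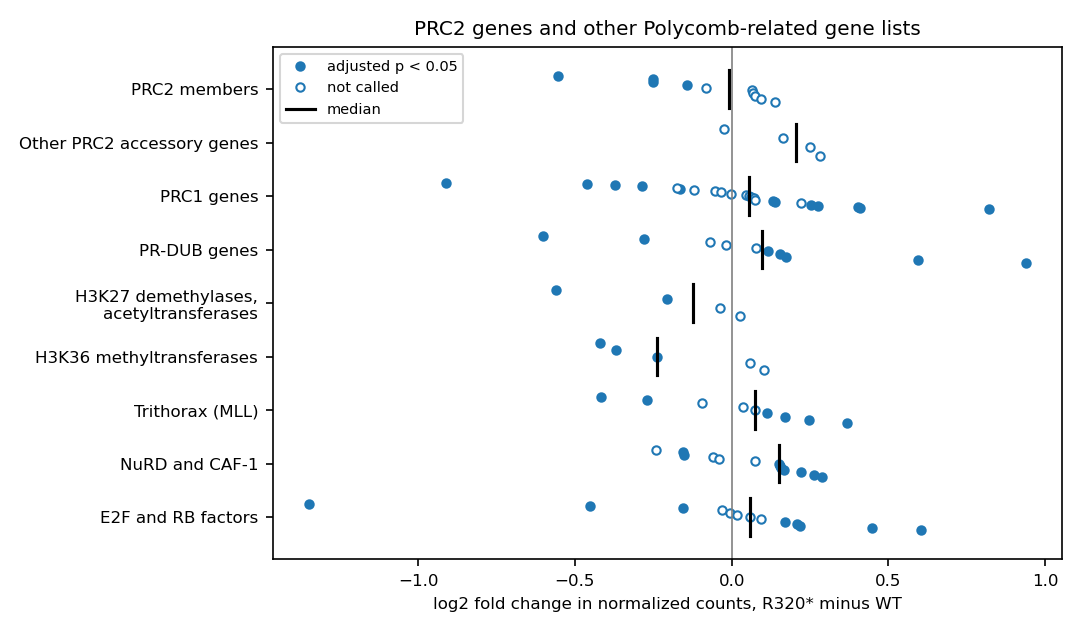
Log2 fold change in normalized counts, R320* minus WT, of the tested genes of each list (points, filled where the limma adjusted p was below 0.05) with the list's median (black line). The PRC2 members centre near 0 with EZH2 at -0.55, and E2F7 at -1.35 lies farthest from 0.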

How the data were processed

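RNA-seq libraries of R320* and WT K562 cells (3 each) were analysed from 2 deposited tables. The submitters' processing notes name hg38, Salmon, HISAT2, featureCounts and DESeq2; versions, and which tool made which table, are not stated there. The deposited signal values are normalized read counts, made by the authors by dividing the reads of each gene by 1 factor per library: all values were whole multiples of the library's smallest value (within 1e-06), which stands for 1 read. The deposited RPKM values are per gene length; their columns sum to between 721735 and 786389, which leaves a transcripts-per-million scale possible.

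Entrez identifiers were matched to RefSeq (27745 of 28395). Genes with at least 10 normalized counts, or 0.5 RPKM, in at least 3 libraries were fitted on log2(normalized count + 1) or log2(RPKM + 0.1) in limma 3.58.1 (R 4.3.3; eBayes with its intensity trend; no covariate). Shares were compared by exact two-sided permutation tests over libraries. The fits were tested on simulated data. Promoter sequences are from RefSeq (GRCh38.p14), found for 10 of 10 members; figures used matplotlib 3.10.9.

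The named genes are all members, RUNX1, companion-list genes called with at least a 2-fold difference (otherwise the list's 2 smallest adjusted p-values), and tested pseudogenes or overlapping genes. EPOP, LCORL, EZHIP, RING1, SCML1, PCGF2, BMI1, ASH1L, NSD3, HDAC1, HDAC2, CHAF1A, CHD4, E2F1, E2F5, RB1 and the markers of other lineages and of K562 were named after their values were seen. The antisense gene JARID2-AS1 averaged 13.6 ± 8.04 normalized counts in R320* and 8.89 ± 4.12 in WT (limma adjusted p = 0.511). The members and lists were chosen with earlier results of these data known.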

Additional observations from a re-analysis of the deposited data

How the results depend on the processing

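The calls of EZH2, EED and PHF19 held in all 15 count alternatives and all 10 RPKM alternatives, and that of RBBP7 in all 15 of counts. Upper-quartile scaling was added after the data were seen. Every member kept its sign in every alternative run. The number of members called was 4 in counts and 4 to 6 over the alternatives, with 5 under quantile and 6 under upper-quartile scaling, and 4 or 5 without any 1 library; in RPKM it was 5 and 4 to 5. Calls over all genes were 7685 in counts, between 6931 and 7314 without any 1 library, and 5675 in RPKM, between 4497 and 5070. Replicate numbers are shared between the genotypes, but same-numbered libraries did not deviate together in counts (correlations of 0.0316, -0.00312 and -0.00325 across genes). Whether they were cultured or prepared together is not stated in the labels, and these correlations cannot decide it. With the replicate block 7854 genes and 4 members were called in counts and 4865 genes and 4 members in RPKM, where MTF2 lost its call (limma adjusted p = 0.0643). The block gave the same mean differences in the 3 shares, with the EZH2 share at -10.01 percentage points (exact sign-flip p = 0.25, the smallest possible). On normalized counts in place of RPKM the 3 share differences kept their sign, but that of the PRC2.2 members was 3.99 percentage points, against 2.22 in RPKM (exact permutation p = 0.1 in both). The median log2 fold change of all genes was 0.01 in counts and 0.04 under quantile or upper-quartile scaling. edgeR, DESeq2 and TMM alternatives were not run, and the deposited values were used as normalized values and not as counts. The 3 libraries a genotype limit the permutation tests to p = 0.1.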
